A study of Mus musculus with 11 samples.

Results

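The Serpin gene family was measured in liver through 44 of the 60 Serpin genes on the array, chosen by gene symbol and by a signal well above background. The serpins are a family of proteins that share one fold, and most of them trap a protease by letting it cut an exposed loop and then locking it in an inactive complex. The liver secretes many of them into the blood, where they hold back clotting, complement activation, fibrinolysis and neutrophil proteases. Some members have lost the inhibitory function and instead carry hormones or help other proteins to fold, and the Serpinb genes (clade B) mostly encode proteins that stay inside the cell. In the mouse several serpins that are single genes in humans have expanded into clusters of similar copies, among them Serpina1, Serpina3 and Serpinb6.

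Serpin genes were followed here in liver RNA of db/db mice, which lack a working leptin receptor and become obese and diabetic. The controls (PBS, 5 samples) and the mice treated with the antibody 3c7.v44 mAb against the glucagon receptor, at 5 mg/kg (6 samples, called anti-GCGR), all carried the db/db genotype, so that the leptin receptor defect is common to both groups. A PBS replicate numbered 2 was not analysed here. Each liver RNA was labelled with Cy5 and hybridised together with a Cy3-labelled pooled mouse reference RNA on a two-colour Agilent array. The labels do not give age, sex, length of treatment or whether each sample is a separate mouse, so that p-values here refer to the spread among these samples alone, part of which may be technical. All values are log2(Cy5/Cy3), a level relative to the reference RNA, and they can be compared between samples for a gene but not between genes.

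A gene was counted as a member when its symbol starts with Serpin and a probe designed on one of its transcripts gave a Cy5 signal well above background on 5 or more of the 11 arrays. Of 60 Serpin genes with a probe on the array (75 probes), 44 genes (55 probes) met this, among 15974 genes that did. On all 11 arrays 36 of the 44 were above background, and 11 had more than 1 such probe, of which the brightest stands for the gene. Just inside the limit, on 5 arrays, lay Serpinb9c and Serpinb9f, and just outside it, on 4 arrays, lay Serpina12. Apart from Serpina12, the 15 genes that were not measured were Serpina3a, Serpina3j, Serpine2, Serpinb1b, Serpinb2, Serpinb3a, Serpinb3b, Serpinb5, Serpinb7, Serpinb9b, Serpinb9d, Serpinb9g, Serpinb10, Serpinb11 and Serpinb13. No probe matched Serpina1b.

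The arrays were of even quality, with median Cy5 intensities of 85 to 110 over a background of 26 to 27 and 65.45 to 76.6% of probes well above background. They held no gene spot saturated in Cy5, and saturation in Cy3 was not counted. They lay on 3 slides, each holding both groups. Slide 2 held only 1 PBS array, so that each difference on that slide rests on a single control. All 8 markers of hepatocytes fixed for the check were measured and none passed the test between the groups (median log2 difference -0.12). Their differences ran from -0.35 (Cps1) to 0.33 (Apoa1), and the lowest adjusted p in limma was 0.0556 (Pck1, -0.29). An equal share of hepatocytes is thus not shown. The liver pieces were bulk tissue, so that fewer cells of a type and less RNA per cell cannot be told apart.

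With the antibody 10 of 44 Serpin genes (22.7%) passed an adjusted p of 0.05 in limma, 7 higher (15.9%) and 3 lower (6.82%). Over all 15974 genes 14.6% passed, 8.98% higher and 5.66% lower. The 7 that rose were the pseudogene Serpina4-ps1, the hormone carrier Serpina7, 4 of the 5 Serpinb6 genes and the collagen chaperone Serpinh1. Those that fell were Serpinb8, Serpina1c and Serpina1e. Of the 36 genes above background on all arrays 9 passed, beside 16.8% of all genes under that limit. The median difference over the 44 was 0.04 on the log2 scale, beside 0.01 over all genes. In 2 Serpin genes, Serpinb6c and Serpinb8, no antibody array overlapped with a PBS array, and 6.65% of all genes had such separate groups. Centring each array on its median in place of loess turned the calls over all genes from 1434 higher and 904 lower to 581 and 2145, and gave 6 Serpin genes higher and 4 lower. With Cy5 alone the split over all genes was 1175 to 1115 and for the Serpin genes 8 to 2, and with the scanner software's own ratio it was 977 to 1185 and 5 to 3. Leaving out anti-GCGR replicate 4 or replicate 6 reduced the Serpin calls to 6. The share over all genes fell as well, to 8.78 and 10.9%.

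**Figure D1:**
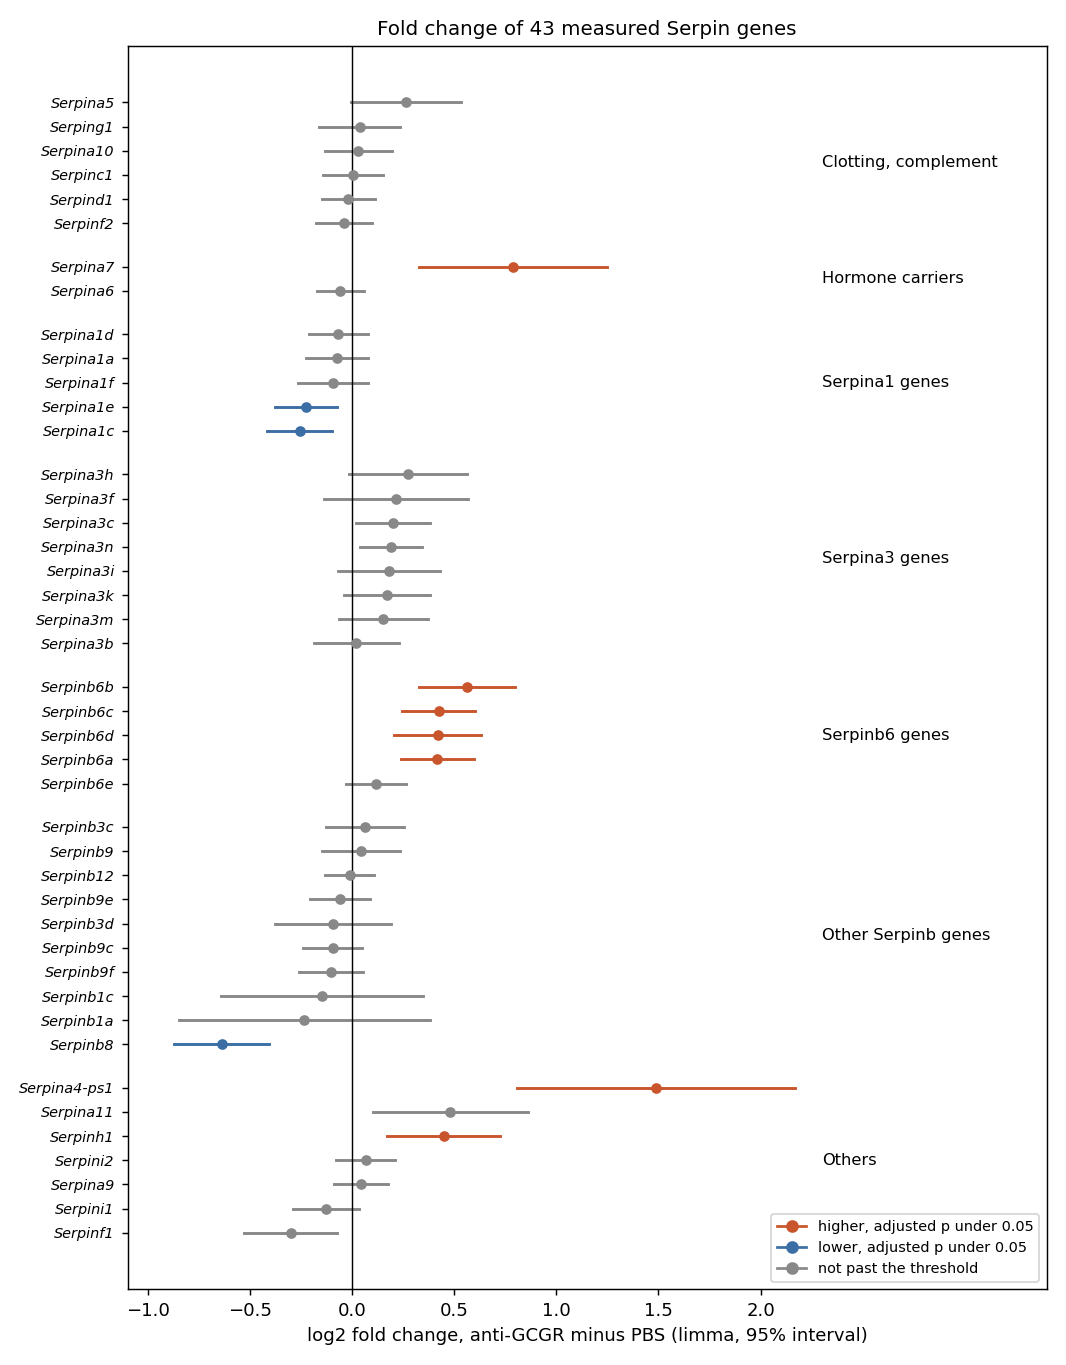
Log2 difference (anti-GCGR minus PBS, horizontal axis) of 43 of the 44 measured Serpin genes, grouped by role, with 95% intervals of the limma fit. Serpina4-ps1, dim with PBS and in the reference, lies at 1.49 and Serpinb8 at -0.64, and the 6 inhibitors of clotting and complement sit between -0.04 and 0.26.

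Anti-GCGR replicate 5 stood apart from the other antibody arrays. In all 10 called Serpin genes it was the antibody array nearest to the PBS mean, and in 8 of the 10 it lay inside the PBS range. Replicates 1 and 3 did so in 1 and 2 of the genes, and replicates 2, 4 and 6 in none. Without replicate 5, 14 Serpin genes passed (10 higher and 4 lower) and 24.2% of all genes did. All 10 were among the 14, as were Serpinf1, Serpina11 and Serpina3n. Whether this sample received the antibody like the others cannot be told from the files, so that it was kept under its label and means over 6 arrays include it.

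**Figure D2:**
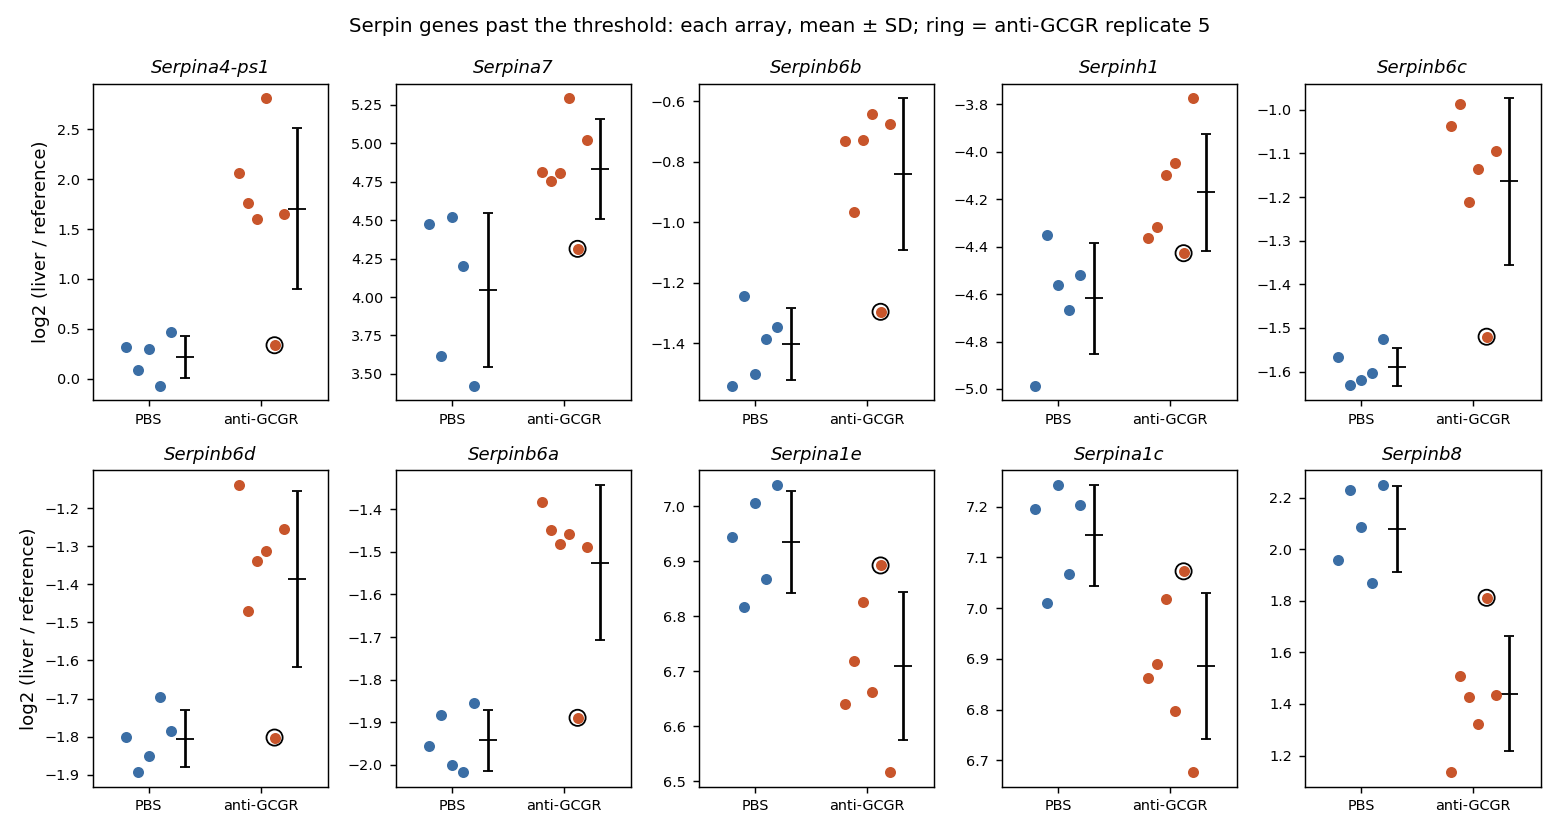
Log2(Cy5/Cy3) of the 10 Serpin genes past the threshold on each of the 5 PBS and 6 anti-GCGR arrays (points), with the mean and SD of each group; a ring marks anti-GCGR replicate 5. The ringed point is the antibody array closest to the PBS mean in all 10 panels.

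None of the 6 inhibitors of clotting and complement passed the test. For Serpinc1, Serpind1, Serpinf2, Serping1 and Serpina10 the 95% interval of the difference ended within 0.24 of 0. Antithrombin (Serpinc1), which blocks thrombin and factor Xa, read 8.74 ± 0.16 (SD, n = 5) with PBS and 8.75 ± 0.06 (SD, n = 6) with the antibody. Its difference was 0.00 with a 95% interval of -0.14 to 0.15. All 6 antibody arrays lay within the PBS range. Heparin cofactor II (Serpind1), another thrombin inhibitor, read 5.43 ± 0.11 and 5.41 ± 0.08 in the same order, a difference of -0.02 (-0.15 to 0.11).  Alpha-2-antiplasmin (Serpinf2), which inhibits plasmin, stood at 5.41 ± 0.12 and 5.37 ± 0.09 (difference -0.04, -0.18 to 0.10).

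C1 inhibitor (Serping1), which restrains the first complement component and kallikrein, averaged 6.94 ± 0.21 with PBS and 6.98 ± 0.12 with the antibody. The difference was 0.04 (-0.16 to 0.24), and its other probe gave 0.06. The protein Z-dependent inhibitor of factor Xa, Serpina10, averaged 5.96 ± 0.14 and 5.98 ± 0.12, with a difference of 0.03 (-0.13 to 0.19). Its other probe gave -0.09, also not past the threshold. With Cy5 alone, Serpind1 passed at -0.28 (limma, adjusted p = 0.0252), while Serpina10, Serpinf2 and Serping1 gave -0.32, -0.25 and -0.26 without passing. The other Serpina10 probe passed there, at -0.40 (adjusted p = 0.0392). The protein C inhibitor Serpina5 was dim. It was above background on 1 of 5 PBS and 5 of 6 antibody arrays and differed by 0.26 (adjusted p = 0.171), with anti-GCGR replicates 3 and 4 at 0.68 and 0.76 and all other arrays at 0.26 or lower. The scanner ratio gave 1.94 for Serpina5 (adjusted p = 0.0720).

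The 2 hormone carriers of the family behaved differently in these arrays, although the difference between them was not tested. Serpina7, on the X chromosome, encodes thyroxine-binding globulin, which carries thyroid hormone in plasma. Its PBS values were 4.47, 3.62, 4.52, 4.20 and 3.42 in replicates 1, 3, 4, 5 and 6, and its antibody values ran from 4.31 through a median of 4.81 to 5.30. PBS replicates 3 and 6 were low, and only the lowest antibody array, replicate 5, fell among the PBS samples. The means were 4.05 ± 0.50 (SD, n = 5) and 4.84 ± 0.32 (SD, n = 6), a 1.73-fold rise (log2 0.79 ± 0.21 SE, limma adjusted p = 0.0276). The antibody arrays were higher on each slide, by 0.56, 0.34 and 1.39.

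Whether Serpina7 rose depended on the ratio used, and its call depended on single arrays as well. The scanner software's own ratio gave -0.03 (adjusted p = 0.952), and Cy5 alone gave 0.73 (adjusted p = 0.0658). The reference signal of this probe was above background on only 2 of 11 arrays. Leaving out any one of PBS replicates 3 and 6 or anti-GCGR replicates 3, 4 and 6 also ended the call, with differences of 0.68, 0.63, 0.79, 0.70 and 0.75. In these fits 8.78 to 10.9% of all genes passed, beside 14.6% with all arrays. Corticosteroid-binding globulin (Serpina6), the plasma carrier of glucocorticoids, read 4.62 ± 0.08 and 4.56 ± 0.07, a difference of -0.06 with an interval of -0.17 to 0.06 (adjusted p = 0.508). Its other probe gave -0.32 (adjusted p = 0.321). The value of Serpina6 varied with the scaling, at -0.88 (adjusted p = 0.104) with Cy5 alone, -0.26 (adjusted p = 0.0605) with median centring and 0.13 (adjusted p = 0.286) with the scanner ratio.

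The Serpina1 genes encode alpha-1-antitrypsin, the main plasma inhibitor of neutrophil elastase. Both falling members of this group fell by little. Serpina1c read 7.20, 7.01, 7.24, 7.07 and 7.20 in the PBS arrays and 6.68, 6.88 and 7.07 as the lowest, median and highest antibody array. Antibody replicates 3 and 5 reached into the PBS range and the other 4 lay under it. Its means of 7.14 ± 0.10 and 6.89 ± 0.14 differed by -0.26 ± 0.07 SE, 1.20-fold lower (adjusted p = 0.0358). Serpina1e read 6.94, 6.82, 7.01, 6.87 and 7.04 with PBS and 6.52, 6.69 and 6.89 with the antibody. The same 2 antibody arrays overlapped with the PBS arrays. Its difference was -0.23 ± 0.07 SE, 1.17-fold lower (adjusted p = 0.0494).

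Neither call was firm. Cy5 alone gave 0.03 for Serpina1c (adjusted p = 0.743) and 0.08 for Serpina1e (adjusted p = 0.266), opposite in sign. Before loess the reference dye of these probes was 0.21 and 0.20 higher on the antibody arrays, and the liver dye was -0.12 and -0.09 lower. Without any 1 of 7 arrays (PBS replicates 1, 4 and 6, anti-GCGR replicates 1, 2, 4 and 6) the Serpina1c call was lost, with differences of -0.26 to -0.22. For Serpina1e leaving out any array but anti-GCGR replicate 5 ended the call, as did the slide as a block (adjusted p = 0.0538) and the deposited values (adjusted p = 0.0545). In the test over single probes, in which 10.9% of 28592 probes passed, the second Serpina1e probe fell by -0.41 (adjusted p = 0.0334), and the first gave -0.23 (adjusted p = 0.0583). The second probe of Serpina1e stayed lower with Cy5 alone, at -0.36 (adjusted p = 0.0457).

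The remaining measured copies, Serpina1a, Serpina1d and Serpina1f, did not pass in the reported fit. Serpina1a averaged 7.30 ± 0.14 with PBS and 7.22 ± 0.10 with the antibody, a difference of -0.08 (-0.23 to 0.08), and its other probe gave -0.03. Serpina1d averaged 6.07 ± 0.13 and 6.00 ± 0.09, a difference of -0.07 (-0.21 to 0.08). Its other probe gave -0.20 (adjusted p = 0.0563). That probe passed with median centring (-0.25, adjusted p = 0.0308), Cy5 alone (-0.35, adjusted p = 0.0397) and the scanner ratio (-0.31, adjusted p = 0.0326), and the other Serpina1a probe passed with Cy5 alone (-0.34, adjusted p = 0.0168). Serpina1f differed by -0.09 (adjusted p = 0.475). The array files hold no probe sequences, so that cross-hybridisation between these near-identical copies was not tested, and each value belongs to a probe rather than surely to one copy.

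The windows in front of the Serpina1 genes show how alike the copies are. The 250 bases before the start of Serpina1a (chr12:103863620-103863869, minus strand), not called, and Serpina1c (chr12:103904951-103905200, minus strand), called lower, are given 5′ to 3′ from RefSeq (GRCm38.p6). Capitals mark a run of 55 bases that the windows of Serpina1a, Serpina1b, Serpina1c, Serpina1d and Serpina1e share without a difference.
Serpina1a: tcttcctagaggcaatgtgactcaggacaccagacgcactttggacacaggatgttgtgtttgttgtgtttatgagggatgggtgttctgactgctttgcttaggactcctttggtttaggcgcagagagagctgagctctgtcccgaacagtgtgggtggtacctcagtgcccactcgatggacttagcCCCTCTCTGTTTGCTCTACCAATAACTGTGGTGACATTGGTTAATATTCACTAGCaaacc
Serpina1c: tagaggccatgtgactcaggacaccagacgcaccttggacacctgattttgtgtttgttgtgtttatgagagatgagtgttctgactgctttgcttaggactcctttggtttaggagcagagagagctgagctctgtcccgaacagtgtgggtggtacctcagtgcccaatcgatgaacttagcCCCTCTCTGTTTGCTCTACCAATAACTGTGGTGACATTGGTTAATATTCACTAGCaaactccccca
These windows were identical at 93.2% of bases after alignment. The 10 pairs among the 5 genes ranged from 72.4 to 93.2% (median 88.6%), beside a median of 52% over 561 pairs of 34 measured Serpin genes. Serpina1c and Serpina1e, the pair that fell, were identical at 76.0%. The shared run holds GTTAAT, the letters of a binding half-site of the liver factor HNF1, which was found on either strand in 23.8% of 42 windows of measured Serpin genes and in 6.47% of 32536 windows of all genes. The 42 windows belong to 34 genes, and the Serpina1 copies that share the run count separately. This share and the motif shares below thus do not rest on independent windows.

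Serpina3 genes mostly encode alpha-1-antichymotrypsin-like inhibitors, acute phase proteins whose targets include cathepsin G and other chymotrypsin-like proteases. The transcript that the Serpina3h probe was designed on is listed by RefSeq as non-coding. None of the 8 measured copies passed the test. Their differences ran from 0.02 (Serpina3b) to 0.27 (Serpina3h), with a median of 0.19. Serpina3b turned below 0 with median centring, Cy5 alone and the scanner ratio, and Serpina3i with the scanner ratio. Serpina3k, an abundant mouse copy, read 6.92 ± 0.23 with PBS and 7.09 ± 0.12 with the antibody, a difference of 0.17 (-0.04 to 0.38, adjusted p = 0.259). In Cy5 alone Serpina3k was higher by 0.46 (adjusted p = 0.0352), while median centring gave 0.06 (adjusted p = 0.640) and the scanner ratio 0.11 (adjusted p = 0.502).

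Serpina3n, another copy induced in inflammation, read 3.84, 3.61, 3.75, 3.52 and 3.76 with PBS, and 3.68, 3.92 and 3.96 as the lowest, median and highest antibody value. Every antibody array but replicate 5 lay above all PBS arrays. The difference was 0.19 ± 0.07 SE (adjusted p = 0.0825), and without replicate 5 it was 0.23 (adjusted p = 0.0189). With the slide as a block it was 0.21 (adjusted p = 0.0255). Median centring gave 0.11 (adjusted p = 0.329), the scanner ratio 0.02 (adjusted p = 0.839) and Cy5 alone 0.55 (adjusted p = 0.122).

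A single PBS array weighed on the other Serpina3 values. PBS replicate 6 was the highest PBS array for 6 of the 8 genes and lay a median of 0.35 above their PBS means, while replicate 5 lay -0.15 from them in the median. The differences were 0.20 for Serpina3c, 0.22 for Serpina3f, 0.18 for Serpina3i and 0.15 for Serpina3m. Without PBS replicate 6, Serpina3f and Serpina3h passed, at 0.40 (adjusted p = 0.0306) and 0.41 (adjusted p = 0.0263). Their second probes, where there were any, gave 0.09 for Serpina3f and -0.03 for Serpina3i.

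Serpina4-ps1, a transcribed pseudogene of the kallistatin gene on chromosome 12, was above background on all 6 antibody arrays, on 2 of 5 PBS arrays and on no array in the reference dye. It was thus kept mainly through the group in which it was high, and its values with PBS are no firm level. It read 0.32, 0.09, 0.30, -0.07 and 0.47 in PBS replicates 1, 3, 4, 5 and 6, and 0.33, 1.71 and 2.82 as the lowest, median and highest antibody array. Antibody replicate 5, at 0.33, was the one array among the PBS values, and every other antibody array stood at 1.61 or higher. The means were 0.22 ± 0.21 (SD, n = 5) and 1.70 ± 0.81 (SD, n = 6), and the ratios differed by 1.49 ± 0.31 SE (adjusted p = 0.0118), which is not a measured size of the rise. The difference was 2.13, 1.12 and 1.35 on the 3 slides and 1.76 without replicate 5.

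The scanner software's ratio gave a difference of 3.43 for Serpina4-ps1. The call held without each array in turn (1.26 to 1.76), but the gene was not tested among genes above background on all 11 arrays. Serpina11, another clade A gene of chromosome 12 whose function is poorly known, read 5.38, 4.59, 5.14, 4.84 and 5.29 with PBS and 4.87, 5.64 and 5.85 with the antibody. All antibody arrays except replicate 5 were above the PBS range. Its difference of 0.48 (0.10 to 0.86) had an adjusted p of 0.0837, which became 0.00619 without replicate 5 (difference 0.61). With Cy5 alone it was 0.73 (adjusted p = 0.0401), with median centring 0.40 (adjusted p = 0.116) and with the scanner ratio 0.29 (adjusted p = 0.253).

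Serpinb6 genes form a cluster on chromosome 13 and encode intracellular inhibitors of trypsin-like proteases and cathepsin G. Of the 5 copies, 4 rose together by 1.34-fold or more. Serpinb6b read -1.54, -1.24, -1.50, -1.38 and -1.35 with PBS and -1.30, -0.73 and -0.64 as the lowest, median and highest antibody array. Antibody replicate 5 alone lay within the PBS values. The difference was 0.56 ± 0.11 SE, 1.48-fold (adjusted p = 0.00848), from -1.40 ± 0.12 to -0.84 ± 0.25.

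The other 3 rose by 1.34-fold each. Serpinb6c read -1.57, -1.63, -1.62, -1.60 and -1.52 with PBS and -1.52, -1.12 and -0.99 with the antibody, as lowest, median and highest. Its groups did not overlap, although replicate 5 was only just above the highest PBS array. Its difference was 0.42 ± 0.08 SE (adjusted p = 0.00848) and its other probe gave 0.40 (adjusted p = 0.00949). Serpinb6a read -1.96, -1.88, -2.0, -2.02 and -1.85 with PBS and -1.89, -1.47 and -1.38 with the antibody. Antibody replicate 5 lay among the PBS arrays and the rest clearly above them. Its difference was 0.42 ± 0.08 SE (adjusted p = 0.00876).

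Serpinb6d read -1.80, -1.89, -1.85, -1.70 and -1.79 with PBS and -1.80, -1.33 and -1.14 with the antibody. Again only replicate 5 overlapped with the PBS arrays. The difference was 0.42 ± 0.10 SE (adjusted p = 0.0166). The fifth copy, Serpinb6e, differed by 0.12 with an interval of -0.03 to 0.27 (adjusted p = 0.275). The calls of Serpinb6a, Serpinb6b, Serpinb6c and Serpinb6d held without each array in turn, with differences no lower than 0.39, 0.52, 0.39 and 0.37. On slide 2, which holds antibody replicate 5, the differences of these 4 were 0.35, 0.25, 0.35 and 0.06, against 0.56, 0.83, 0.51 and 0.60 on slide 1.

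On each array the 4 rising copies deviated from their PBS means by similar amounts. The widest gap between them on any array was 0.31 and the narrowest 0.07. For Serpinb6a and Serpinb6c it was 0.01 to 0.11. These copies are close relatives, and whether their probes read each other's transcripts was not tested. Among the cell type markers, 5 of 6 for stellate cells and fibroblasts passed as higher with the antibody, beside 8.98% of all genes. So did 2 of 6 for endothelial cells and 1 of 5 for macrophages. None did of 6 for T and NK cells, of 5 for neutrophils, or of 4 each for cholangiocytes, adipocytes and pancreas. The summed Cy5 intensity of the stellate cell list was 25242 to 32772 with PBS and 29385 to 46493 with the antibody. That of the endothelial list was 10363 to 13813 and 12557 to 17280, and that of the macrophage list 17373 to 24766 and 18135 to 30625. The hepatocyte list gave 828278 to 926330 and 714830 to 923879. These sums were not scaled between arrays, whose median Cy5 ran from 85 to 110, and bright genes weigh most in them. The part of these cell types in the Serpinb6 result was not tested.

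**Figure D3:**
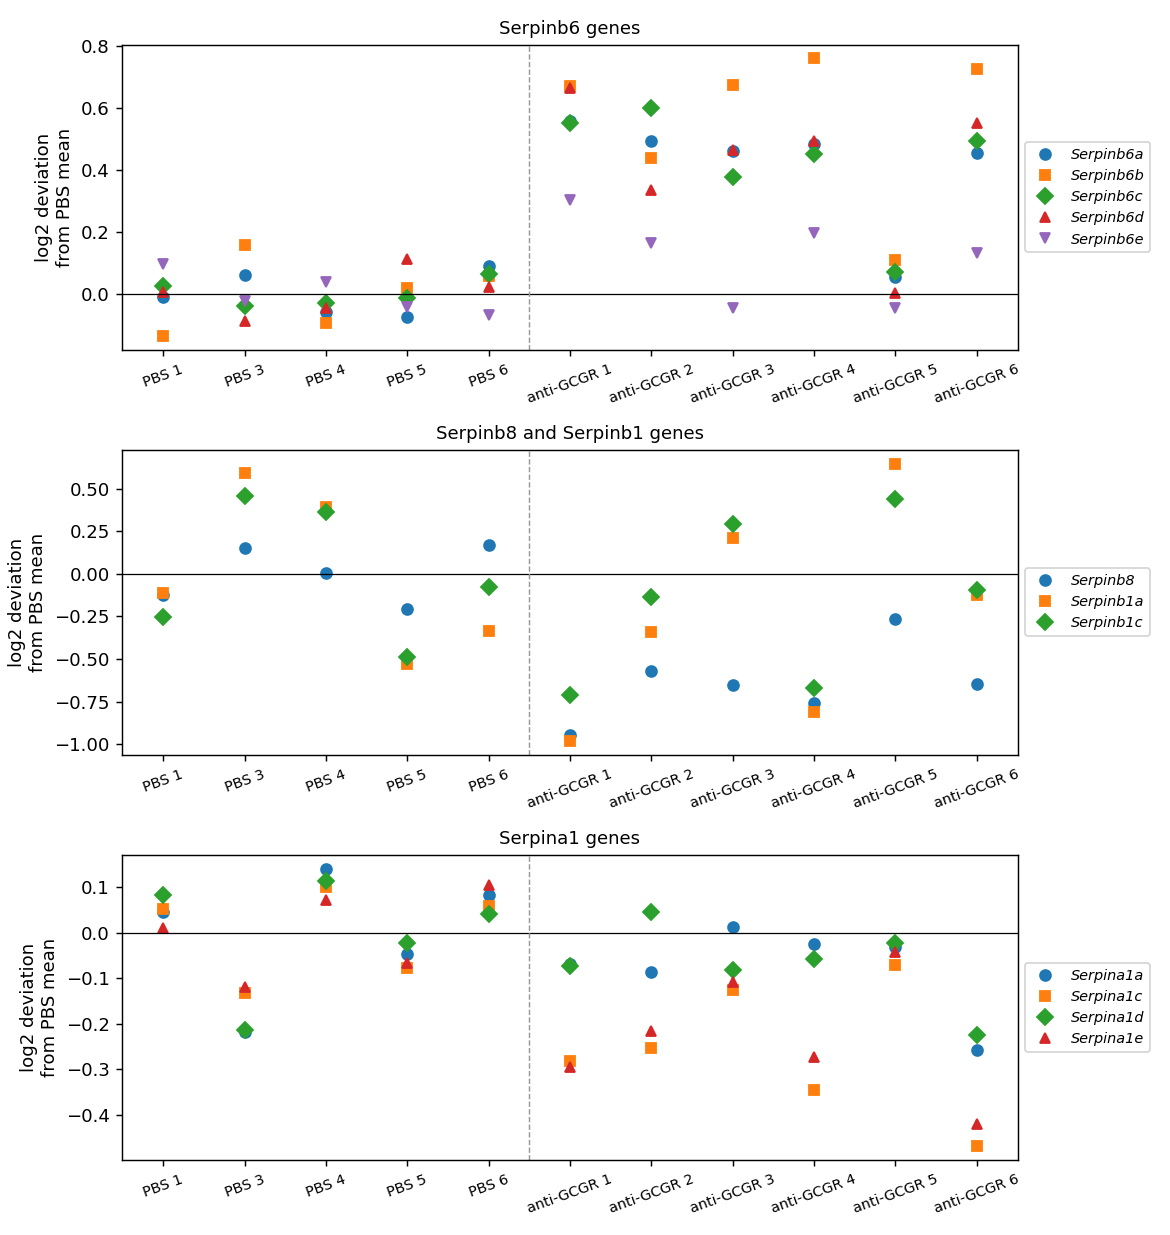
Deviation of each array from the PBS mean (log2, vertical axis) for the Serpinb6 genes, for Serpinb8 with Serpinb1a and Serpinb1c, and for the Serpina1 genes, with the arrays along the horizontal axis. Serpinb6a to Serpinb6d run together, with gaps of at most 0.31, and come back to the PBS level on anti-GCGR replicate 5.

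The windows in front of the rising Serpinb6 genes, unlike those of Serpina1, share little sequence. Serpinb6a (chr13:34002795-34003044, minus strand) and Serpinb6c (chr13:33905192-33905441, minus strand) are shown because their values ran closest together. Capitals mark TTCCGGGAA, a match to TTCNNNGAA, the STAT motif, and the second window held none of the motifs searched.
Serpinb6a: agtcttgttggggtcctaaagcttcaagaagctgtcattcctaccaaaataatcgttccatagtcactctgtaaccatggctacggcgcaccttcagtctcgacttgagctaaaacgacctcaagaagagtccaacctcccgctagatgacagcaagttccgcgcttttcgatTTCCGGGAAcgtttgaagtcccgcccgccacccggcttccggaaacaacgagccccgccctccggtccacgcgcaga
Serpinb6c: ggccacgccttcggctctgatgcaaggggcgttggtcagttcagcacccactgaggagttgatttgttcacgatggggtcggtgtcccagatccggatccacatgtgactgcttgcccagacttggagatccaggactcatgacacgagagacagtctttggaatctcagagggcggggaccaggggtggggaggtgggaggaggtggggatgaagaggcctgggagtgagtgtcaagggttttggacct
They were identical at 49.2% of bases after alignment, and the 10 pairs of Serpinb6 windows had a median of 51%. The most similar pair, at 72.4%, was Serpinb6d with Serpinb6e, of which the first rose and the second did not pass. TTCNNNGAA stood in 19.0% of the Serpin windows and 7.04% of all windows. The full cAMP response element TGACGTCA, bound by CREB, was in no Serpin window and in 1.56% of all windows. Its short form TGACG, contained in the full one, was in 14.3% and 17.9%, and in none of the 9 called genes that had a window. The E-box CACGTG was in no Serpin window and in 6.04% of all.

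Serpinb8, an intracellular inhibitor on chromosome 1 that can block furin in vitro, was lower on every antibody array than on any PBS array. It read 1.96, 2.23, 2.09, 1.87 and 2.25 with PBS and 1.13, 1.43 and 1.81 as the lowest, median and highest antibody array. No antibody array reached the PBS values, and replicate 5 was again the nearest. The means were 2.08 ± 0.17 (SD, n = 5) and 1.44 ± 0.22 (SD, n = 6), 1.56-fold lower (log2 -0.64 ± 0.11 SE, adjusted p = 0.00581). The fall was present on each slide, at -0.79, -0.21 and -0.81. It held without each array in turn (-0.71 to -0.58). Furin itself, a protease of the secretory pathway, differed by 0.20 (adjusted p = 0.195).

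Serpinb8 and Serpina7 are shown with their windows because they are called genes with GTTAAT outside the Serpina1 cluster (Serpinb8, chr1:107589756-107590005, plus strand, and Serpina7, chrX:139085237-139085486, minus strand). Capitals mark GTTAAT in both and TGAGTCA in Serpinb8, a match to the AP-1 motif TGANTCA, which stood in 11.9% of Serpin windows and 6.73% of all windows. The windows of Serpina1c, also a called gene, and of Serpina1a hold an AP-1 match too, printed above without capitals.
Serpinb8: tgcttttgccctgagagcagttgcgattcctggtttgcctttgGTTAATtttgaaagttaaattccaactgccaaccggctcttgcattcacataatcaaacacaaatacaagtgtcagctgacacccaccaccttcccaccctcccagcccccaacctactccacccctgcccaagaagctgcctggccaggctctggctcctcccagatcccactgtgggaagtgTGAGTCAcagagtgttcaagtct
Serpina7: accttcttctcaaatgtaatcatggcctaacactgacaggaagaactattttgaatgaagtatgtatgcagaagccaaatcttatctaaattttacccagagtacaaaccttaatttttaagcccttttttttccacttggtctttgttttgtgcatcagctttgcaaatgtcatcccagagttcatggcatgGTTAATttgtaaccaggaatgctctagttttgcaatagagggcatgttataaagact
All motifs were searched on both strands. Of 9 called genes with a window, 4 held GTTAAT, namely Serpina1c and Serpina1e, which fell, Serpina7, which rose, and Serpinb8, which fell. It stood in 5 of the 12 windows of these 9 genes, beside 6.47% of windows of all genes. Serpina1c and Serpina1e hold it in their shared run and are not independent. A match of letters is not evidence of binding.

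Serpinb1a and Serpinb1c, on chromosome 13, encode inhibitors of neutrophil serine proteases such as elastase. Serpinb1a had the widest spread of the 44 genes, with an SD of 0.55 averaged over both groups against a median of 0.15. It read 1.44, 2.14, 1.94, 1.02 and 1.22 with PBS and 0.57, 1.32 and 2.20 with the antibody. Low and high arrays occurred in both groups, and the highest of all was antibody replicate 5. The difference was -0.23 with an interval of -0.85 to 0.38 (adjusted p = 0.635), and by slide it was -1.03, 0.68 and -0.08. Serpinb1c followed it, at -0.15 (adjusted p = 0.718) with -0.75, 0.64 and -0.09 by slide, and the deviations of the 2 genes differed by at most 0.27 on any array. The summed Cy5 intensity of 5 neutrophil markers, not scaled between arrays, was 5986 to 10866 with PBS and 6255 to 8392 with the antibody.

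The other clade B genes did not pass. Serpinb3d and Serpinb12 were not above background in the reference on any array, and Serpinb9c and Serpinb9e on only 2 and 3 of 11, so that their ratios set dim signals against each other. Serpinb9, the granzyme B inhibitor of immune cells, averaged 0.27 ± 0.17 with PBS and 0.32 ± 0.15 with the antibody, and the 4 measured Serpinb9 genes ranged from -0.10 to 0.04. Serpinb3c differed by 0.06, Serpinb3d by -0.10 and Serpinb12 by -0.01. In all, 4 of the 15 Serpinb genes rose and 1 fell, and 2 of the 20 Serpina genes rose and 2 fell, beside 8.98% higher and 5.66% lower over all genes. By position, 4 of 11 genes on chromosome 13 rose, all of them Serpinb6 copies, while 3 of 19 on chromosome 12 and 1 of 5 on chromosome 1 passed in some direction, beside 14.6% of all genes. The share of 15.8% on chromosome 12 lies near that of all genes.

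Serpinh1 encodes Hsp47, a chaperone of the endoplasmic reticulum that binds procollagen and inhibits no protease. It read -4.99, -4.35, -4.56, -4.67 and -4.52 with PBS and -4.43, -4.21 and -3.77 as the lowest, median and highest antibody array. PBS replicate 1 was the lowest array and anti-GCGR replicate 6 the highest, and antibody replicates 1 and 5 lay within the PBS range. The means of -4.62 ± 0.24 and -4.17 ± 0.25 were 1.36-fold apart (log2 0.45 ± 0.13 SE, adjusted p = 0.0349). On the 3 slides the antibody arrays were higher by 0.57, 0.30 and 0.50.

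The Serpinh1 call was lost without any 1 of 7 arrays (PBS replicates 1, 4, 5 and 6, anti-GCGR replicates 3, 4 and 6), where the differences were 0.36 to 0.47. It was lost too with median centring (0.34, adjusted p = 0.0909) and with the scanner ratio (0.46, adjusted p = 0.0618). Of 27 measured genes for procollagens and secretory chaperones, 7 rose and none fell (25.9%, beside 14.6% of all genes), and the median was 0.06. Among the 7 were the collagen chains Col1a1, Col1a2 and Col3a1, which are no chaperones. The rest were Fkbp10, Kdelr3, Sec23a and Sec61b, at 0.18 to 0.32, and 20 genes of the list did not pass. Col1a1, the main fibrillar collagen chain of stellate cells, rose by 1.57 ± 0.29 SE (adjusted p = 0.00672) and Col3a1 by 1.09 ± 0.19 SE (adjusted p = 0.00623). Without anti-GCGR replicate 5 the count of this list was 10, beside 24.2% of all genes. It was 2 without PBS replicate 1, PBS replicate 3 or anti-GCGR replicate 4, 3 without PBS replicate 4 or anti-GCGR replicate 3, and 4 without PBS replicates 5 or 6 or anti-GCGR replicates 1 or 6. Over all genes 7.81 to 12.9% passed without these arrays. The stellate cell and fibroblast markers that rose were Lrat, Pdgfrb and the collagen genes Col1a1, Col3a1 and Col1a2, which both lists hold, and their part in the Serpinh1 value was not tested.

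Serpinf1 encodes PEDF, a secreted serpin that inhibits no protease and restrains blood vessel growth. It read 2.08, 2.11, 2.12, 2.04 and 2.0 with PBS and 1.44, 1.82 and 2.12 with the antibody. The PBS values lay close together, and only antibody replicate 5 was among them. The difference was -0.30 ± 0.10 SE (adjusted p = 0.0706), and the second probe gave -0.31. Without replicate 5 it was -0.37 (adjusted p = 0.00928), and with median centring -0.35 (adjusted p = 0.0310). Cy5 alone gave -0.17 (adjusted p = 0.188). The brain inhibitor neuroserpin (Serpini1) averaged -0.16 ± 0.10 and -0.29 ± 0.15 (difference -0.13, adjusted p = 0.272). Serpini2 differed by 0.07 and the B cell gene Serpina9 by 0.04. Serpini2 was dim, above background on 5 PBS and 2 antibody arrays and on no array in the reference. The scanner ratio gave -0.86 for it (adjusted p = 0.241), opposite in sign.

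**Figure D4:**
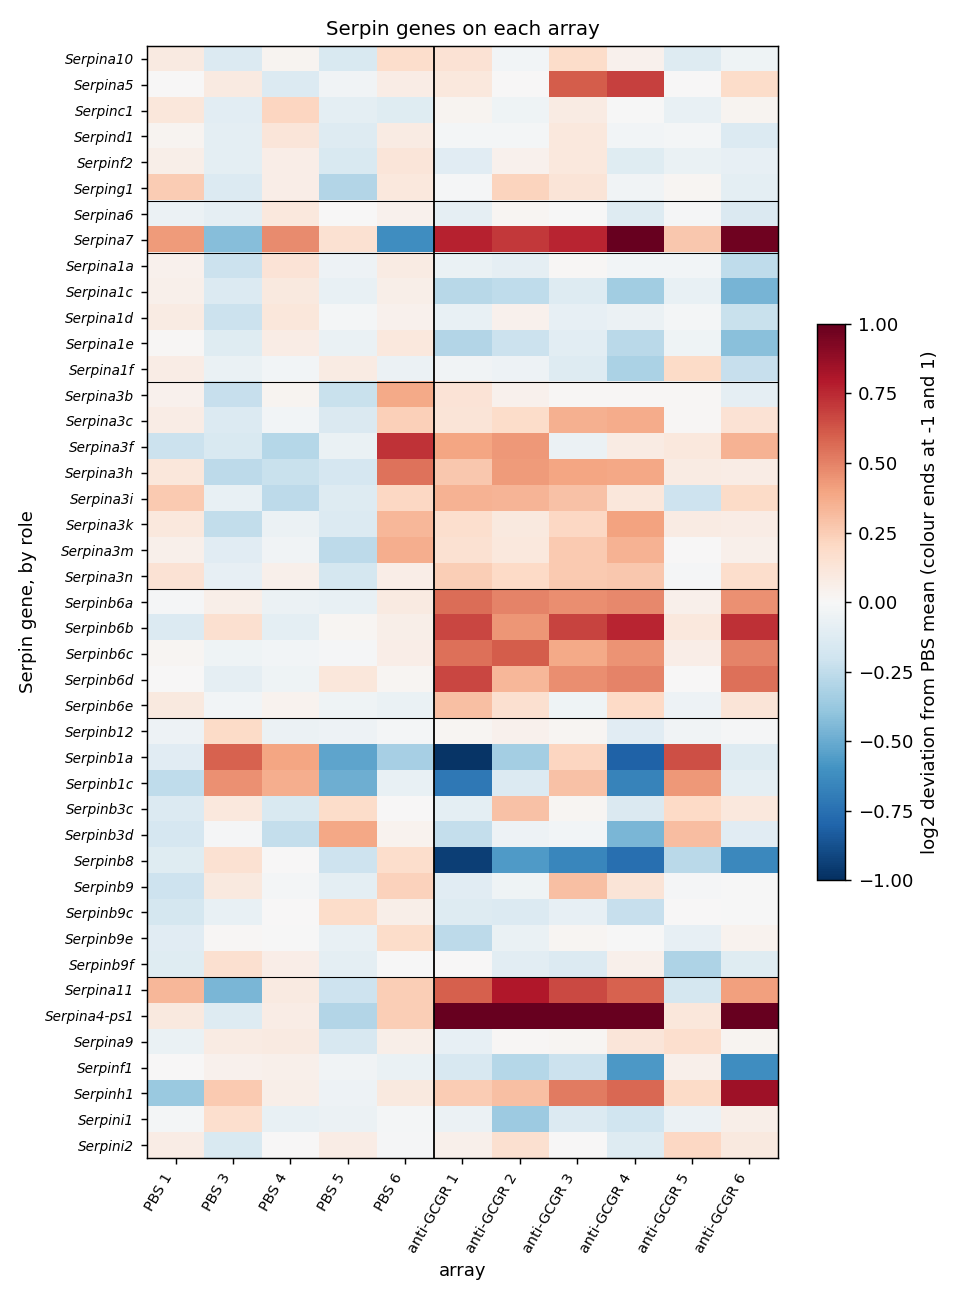
Deviation from the PBS mean (log2, colour, with ends at -1 and 1) of 43 of the 44 Serpin genes (rows) on the 11 arrays (columns). The column of anti-GCGR replicate 5 is paler than the other antibody columns for the called genes, and PBS replicate 6 is high for 6 of the 8 Serpina3 genes.

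Genes that act with the serpins were followed in a pair of lists. Of 34 measured target proteases and cofactors, 3 rose and 2 fell (14.7%, beside 14.6% of all genes). Prss8, a membrane-anchored trypsin-like protease, rose by 1.17 ± 0.31 SE (adjusted p = 0.0258), and C1s1, the complement protease that C1 inhibitor blocks, by 0.93 ± 0.12 SE (adjusted p = 0.00271). Factor X (F10), a target of antithrombin and of Serpina10 once activated, fell by 0.38 (adjusted p = 0.0171), and cathepsin L (Ctsl) fell by 0.34 (adjusted p = 0.0436). This count was 11 without anti-GCGR replicate 5 and 3 without PBS replicates 1, 3, 4 or 6 or anti-GCGR replicates 1, 3 or 4. Thrombin (F2) differed by -0.06 (adjusted p = 0.513).

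Of 28 measured protease inhibitors of other families, 4 rose and none fell (14.3%, near the 14.6% of all genes). They were the secreted whey acidic protein Wfdc2 (1.32 ± 0.24 SE, adjusted p = 0.00670), the metalloprotease inhibitor Timp1 (0.54 ± 0.09 SE, adjusted p = 0.00551), the tissue factor pathway inhibitor Tfpi (0.38) and the cytosolic cystatin B (Cstb, 0.28). The plasma inhibitors Pzp, Ambp and Itih4, which the liver makes in quantity, differed by 0.02, -0.01 and -0.09 and did not pass.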

How the data were processed

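Liver RNA of 5 PBS and 6 anti-GCGR db/db samples was measured on two-colour Agilent arrays. Sample titles gave the group and replicate number. Per the labels, RNA was column-purified with DNase digestion and labelled as cRNA, the liver in Cy5 and the pooled reference in Cy3, without a dye swap. Agilent Feature Extraction made the scanner files (the submitters' processing notes name version 11 and the headers 11.5.1.1). These deposited files hold, per the file headers, median spot and background intensity of both dyes, a log10 ratio of processed signals and spot flags. The authors also deposited log2 ratios, with processing not given in the sources used here. They ran as Cy5 over Cy3 without centring per gene, differed from the values here by a median of 0.00318 (largest 0.457) and correlated with the scanner ratio at 0.875 to 0.887. The median deposited value was -0.0026 on PBS array 1, 0.0022 on 3, 0.00079 on 4, 0.0081 on 5 and 0.00021 on 6. On antibody arrays 1 to 6 it was -0.00096, 0.0075, 0.0015, -0.0028, 0.0054 and 0.0013.

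Arrays were corrected with normexp (offset 50), normalized by loess within each array with limma 3.58.1 in R 4.3.3, and uneven spots were left out. The 39429 gene probes were named through RefSeq accessions without version (GRCm38.p6), of which 26581 matched a gene and 12848 did not. Groups were compared with lmFit and eBayes, in two-sided tests, and p-values were adjusted by Benjamini-Hochberg across the 15974 genes. Errors are SDs between arrays or moderated SEs of the fit, and intervals are 95%. The number of arrays limits the precision. On simulated data with 15974 genes, 88% of changes of 0.5 and 100% of changes of 1 (log2) were recovered, with 8 false calls. The simulation changed 200 genes, drew independent noise for each gene and held no array like anti-GCGR replicate 5. Its rates may thus differ from those of the real arrays. Promoter windows came from RefSeq for 34 of the 44 genes. Every measured Serpin gene but 1, which is not reported here and counts only in totals, is named, with full values for called genes and for a list of plasma and intracellular serpins; further lists give their largest changes, and genes named beside these (such as Furin, F2, Pzp, Ambp and Itih4) were chosen for their role. The members, lists and tests were chosen with earlier results of these data known. Alternatives covered background correction, scaling, Cy5 alone, the scanner and deposited ratios, filters, probe choice, blocks and leaving out each array.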

Additional observations from a re-analysis of the deposited data

Results flagged for a closer look

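Serpina12, which encodes the adipokine vaspin, was outside the measured genes but was well above background on 4 of 6 antibody arrays and on none of the 5 PBS arrays. It read -0.12 ± 0.07 (SD, n = 5) with PBS and 0.12 ± 0.12 (SD, n = 6) with the antibody, a difference of 0.24 ± 0.06 SE (limma over 20144 genes without a filter, adjusted p = 0.0277). No fold is given, since the PBS signal was not well above background on any array.

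In 88 groups (44 genes, 2 groups each) 6 single arrays stood far from the rest of their group by Dixon's criterion, and chance gives about 1 in 20. Anti-GCGR replicate 5 was low for Serpinb6a (-1.89, next -1.49) and Serpina3n (3.68, next 3.87). PBS replicate 3 was high for Serpinb12 (0.37, next 0.15) and Serpini1 (0.0106, next -0.18). PBS replicate 6 was high for Serpina3f (-0.11, next -0.90), and anti-GCGR replicate 6 was low for Serpina1a (7.04, next 7.21).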

How the results depend on the processing

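Serpinb6a, Serpinb6b, Serpinb6c and Serpinb8 were called in every alternative in which they were tested and without each array in turn. Serpina4-ps1 was called wherever it was tested, but it was kept mainly through the antibody arrays. It was not tested among genes above background on all 11 arrays, so that its calls are no sign of a firm result. Over the settings other than leaving out each array in turn, 546 comparisons of a member's gene or probe value with its reported one kept their side of the threshold. A further 12 rose past it, 12 fell below it and 3 called values turned sign. Signs of values that were not called changed more often: with the called ones, 9 of the 44 genes changed sign with Cy5 alone, 7 with the scanner ratio and 6 with median centring. The called ones were Serpina1c (0.0332) and Serpina1e (0.0824) with Cy5 alone and Serpina7 (-0.0257) with the scanner ratio; the cause was not tested. The Serpin count was 8 to 11 under these settings, except for 6 with the replicate number as a block. That block also left out anti-GCGR replicate 2, since no PBS array had its number. It ranged from 6 to 14 when one array was left out, while 7.81 to 24.2% of all genes passed.

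Other counts that moved were those of the target proteases (8 with median centring, 10 with the slide as a block) and of the procollagens and chaperones (4 with median centring, 3 with the scanner ratio, 4 with the replicate block). Over all genes 17.1% passed with median centring, 17.5% with the slide as a block, 13.5% with the scanner ratio and 6.55% with the replicate block. Leaving out one array gave 3 to 11 target proteases, 2 to 10 procollagens and chaperones, and 3 to 5 other inhibitors, beside 7.81 to 24.2% of all genes. Under the replicate block, fitted without anti-GCGR replicate 2, 6 Serpin genes passed, and 1046 genes in all (6.55%). Serpinb6d, Serpina1c, Serpina1e and Serpina7 were lost. Leaving out that array alone, without the block, gave 9 Serpin genes and 11.4% of all genes. Deviations of the 5 same-numbered pairs correlated at -0.125 to 0.141, 2 of them over 0.1. In 0 pairs did a sample correlate best with its own number. Whether the numbers stand for more than a label cannot be told from 5 pairs.

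Serpin genes near background limit the account: 8 of the 44 were not above background on every array, so that their differences depend on how dim signals are treated. Every array was of one dye orientation, so a dye effect of a probe is part of its level. Groups of 5 and 6 arrays gave an interval as wide as -0.85 to 0.38 for Serpinb1a.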
